A study of Danio rerio with 12 samples.

Results

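Microglia and leukocyte marker genes were followed in whole brains of adult zebrafish from a study of behavioural fever, in which fish challenged with a synthetic double-stranded RNA (dsRNA) chose warmer water. The set was chosen by name, with earlier results of these data known, and held 10 genes. Of these, 7 were matched to a probe of the array through the RefSeq accession that the scanner output gives for each probe, out of 11484 genes with a symbol there. The 7 were apoeb, mpeg1.1, csf1ra, spi1b, lcp1, coro1a and mpx, read by 13 of 43603 probes. The genes cd74a, ptprc and lyz were not matched and were not analysed here.

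There were 4 groups of 3 single-colour arrays, each array a pool of 3 brains, so that 9 fish stood behind a group. Control fish were not injected. PBS fish received a sham injection and had access to a thermal gradient. PIC_sG fish were injected with poly(I:C), a synthetic dsRNA, and had no gradient, and PIC_G fish were injected with poly(I:C) and had the gradient. All brains were taken at 24 h. The labels give a poly(I:C) dose of 1 mg per kg, where the methods give a lower one, and the labels place the Control fish in the gradient, where the methods give them none. By the labels PBS and Control differed by the injection alone, and by the methods they differed by both the injection and access to the gradient, which then cannot be told apart. No strain is given in the labels. Each group also held 1 fixed position on all 3 slides, so that position on the slide and group cannot be told apart.

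Microglia are the resident macrophages of the brain, and like other myeloid cells they depend for their development on the transcription factor Pu.1, which spi1b encodes. They engulf debris and dying cells, and their lysosomal, lipid-handling and cytoskeletal genes are commonly used to mark them. In whole brain these markers are shared with macrophages and other leukocytes that enter the tissue or lie in its blood vessels. In a bulk sample, more cells of a type and more RNA of that gene in each cell cannot be told apart.

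Levels are given as scaled log2 signal, the log2 of the processed signal of a gene after subtracting the 75th percentile of its array, so that 0 is the level of that percentile and a difference of 1 is a doubling. Levels of different genes are not comparable on this scale. Tests were made with limma in 1 model of all 12 arrays, with p-values adjusted by Benjamini and Hochberg over 16136 transcripts, and a difference was called at an adjusted p under 0.05. The 75th percentile of the processed signal ranged from 34.6 to 541 between arrays, and PIC_sG replicate 3 stood apart as the dimmest, with 6330 features well above background where the others had 10725 to 21900. In the table deposited for the series, the columns named PIC_sG and PIC_G hold the arrays of the other dsRNA group, whereas the scanner files and the tables of single samples give the same assignment, which was used here. Differences between PBS and Control do not depend on this choice, and values named PIC_sG and PIC_G change places under the other one.

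All 5 of the genes apoeb, mpeg1.1, lcp1, coro1a and spi1b were well above background on all 12 arrays. The main pattern, seen in coro1a, mpeg1.1 and apoeb, was a low level in Control and a higher level in all the injected groups, sham injection included. Only coro1a was called against Control in every injected group. The mean of lcp1 was also higher in each injected group but was not called, and spi1b showed no such step. Against Control, coro1a, mpeg1.1 and apoeb rose 4.12-fold, 2.40-fold and 2.39-fold in PBS, coro1a rose 2.97-fold in PIC_sG, and coro1a and mpeg1.1 rose 2.90-fold and 2.49-fold in PIC_G. No member was called between a dsRNA group and PBS, or between the 2 dsRNA groups.

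**Figure D1:**
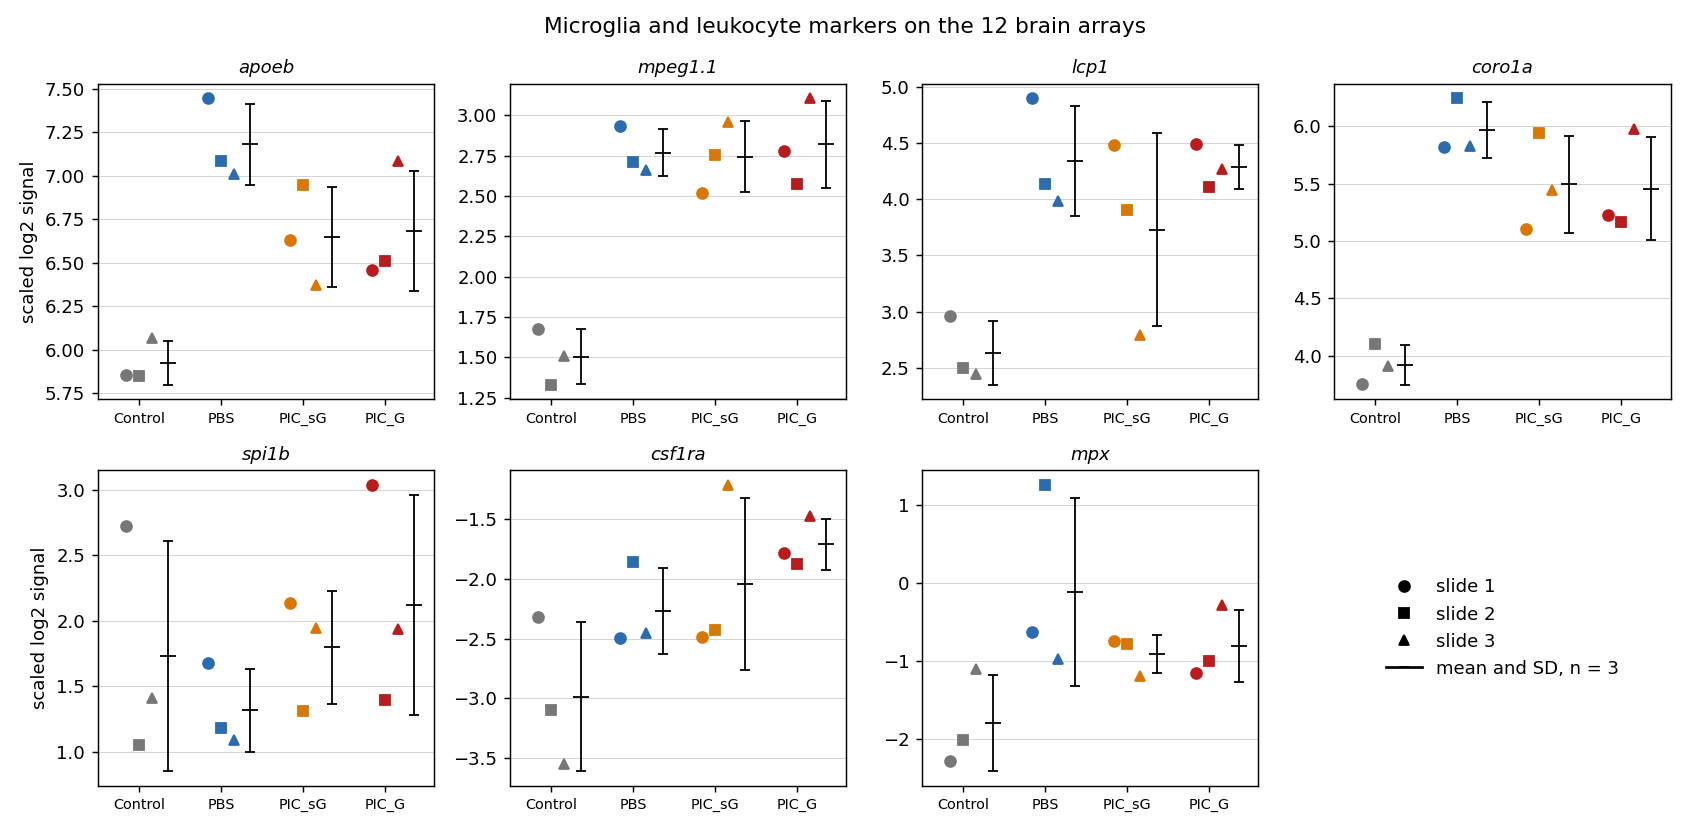
Scaled log2 signal (vertical axis, log2 units, a scale of its own for each gene) of the 7 marker genes on each of the 12 arrays by group, with the slide as the symbol and the mean and SD of the 3 arrays beside them. The 3 Control arrays lie below the 9 others for apoeb, mpeg1.1 and coro1a, whereas spi1b shows no such step.

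Among the cytoskeletal markers, coro1a encodes coronin 1A, an actin-binding protein of leukocytes. Its scaled log2 signal was 3.75, 4.1 and 3.92 in Control, 5.82, 6.25 and 5.83 in PBS, 5.10, 5.94 and 5.44 in PIC_sG, and 5.23, 5.17 and 5.98 in PIC_G. Every array of an injected group was above every Control array, and the injected groups overlapped with each other. The log2 difference from Control was 2.04 (SE 0.33, adjusted p = 0.0144) in PBS, 1.57 (SE 0.33, adjusted p = 0.0441) in PIC_sG and 1.53 (SE 0.33, adjusted p = 0.0459) in PIC_G by limma. Within the 3 slides the difference between PBS and Control was 2.07, 2.15 and 1.91.

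The other actin regulator, lcp1, encodes L-plastin, an actin-bundling protein of leukocytes. Its scaled log2 signal was 2.96, 2.50 and 2.44 in Control, 4.90, 4.14 and 3.98 in PBS, 4.48, 3.91 and 2.80 in PIC_sG, and 4.49, 4.11 and 4.27 in PIC_G. The arrays of PBS and PIC_G lay above all Control arrays, and in PIC_sG the dimmest array of the study fell within the Control range. The log2 difference of lcp1 from Control was 1.70 (SE 0.42, adjusted p = 0.0504 by limma) in PBS, 1.09 (SE 0.42, adjusted p = 0.241) in PIC_sG and 1.65 (SE 0.42, adjusted p = 0.0817) in PIC_G, so none was called. Arrays of Control and PBS with the same replicate number, which were on the same slide, deviated together, and with the replicate number as a block the difference of lcp1 between PBS and Control was called (adjusted p = 0.0211). Without PIC_sG replicate 3 the difference in PIC_sG was 1.56 (adjusted p = 0.0617).

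For the macrophage genes, mpeg1.1 encodes a pore-forming protein of the phagosome and is the usual macrophage and microglia marker in zebrafish. Its scaled log2 signal was 1.67, 1.33 and 1.51 in Control, 2.93, 2.71 and 2.66 in PBS, 2.52, 2.75 and 2.95 in PIC_sG, and 2.78, 2.57 and 3.11 in PIC_G. The 9 arrays of injected fish spanned 2.52 to 3.11, above the highest Control array, and the injected groups were interleaved. The log2 difference of mpeg1.1 from Control was 1.26 (SE 0.27, adjusted p = 0.0321 by limma) in PBS, 1.24 (SE 0.27, adjusted p = 0.0515) in PIC_sG and 1.31 (SE 0.27, adjusted p = 0.0404) in PIC_G. The call thus fell between 2 groups whose levels were 2.74 and 2.82, and with the other assignment of the dsRNA arrays it changes group.

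The lipid carrier apoeb encodes apolipoprotein Eb, which microglia of the zebrafish express strongly. Its scaled log2 signal was 5.86, 5.85 and 6.07 in Control, 7.45, 7.08 and 7.01 in PBS, 6.63, 6.95 and 6.37 in PIC_sG, and 6.46, 6.51 and 7.08 in PIC_G. The highest array was PBS replicate 1, and the arrays of PBS overlapped with those of PIC_G. In these values, joined over 3 probes, all arrays of the injected groups were above the Control arrays. The log2 difference of apoeb from Control was 1.26 (SE 0.29, adjusted p = 0.0402 by limma) in PBS, 0.72 (SE 0.29, adjusted p = 0.251) in PIC_sG and 0.76 (SE 0.29, adjusted p = 0.228) in PIC_G. Its 3 probes all read higher in PBS than in Control, by 0.72, 1.55 and 1.29 on the log2 scale. For the dsRNA groups the single probes did not all separate from Control. On the third, Control replicate 1 was at 4.55, PIC_sG at 4.39, 4.53 and 3.67, and PIC_G at 4.49, 4.52 and 4.62. On the first, Control replicate 1 at 6.77 was above PIC_G replicate 2 at 6.51.

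The receptor csf1ra, through which the growth factors Csf1 and Il34 maintain macrophages and microglia, was near the limit of the array. One of its 2 probes was well above background on 3 arrays, the 3 of PIC_G, and not well above background on any array of Control, PBS or PIC_sG. Its processed signal was 77.8 to 90.1 in PIC_G, where it passed. It did not pass at 96.6 in PIC_sG replicate 1 or at 82.8 in PBS replicate 2. Passing in PIC_G alone therefore does not by itself show a higher signal of csf1ra there. The other was well above background on 1 array and was not used. The scaled log2 signal of csf1ra was -2.32, -3.10 and -3.54 in Control, -2.50, -1.86 and -2.46 in PBS, -2.49, -2.42 and -1.21 in PIC_sG, and -1.79, -1.88 and -1.47 in PIC_G. The value of -1.21 is from the dimmest array, where csf1ra was not above background. PIC_G was at least 1.70-fold higher than Control (adjusted p = 0.164 by limma), at least 1.30-fold higher than PBS (adjusted p = 0.619) and at least 1.09-fold higher than PIC_sG (adjusted p = 0.896), where the dim group was set, on each of its arrays, to the dimmest probe that still passed the background test or to the csf1ra signal itself, whichever was higher. None of these differences was called. This probe entered the tests only through PIC_G, the group where it was highest. The probe that was not used read -2.92 in PIC_G and -2.76 in Control on average, the other way round, and allowed no bound.

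The transcription factor gene spi1b was not called in any comparison. Its scaled log2 signal was 2.72, 1.05 and 1.41 in Control, 1.68, 1.18 and 1.09 in PBS, 2.14, 1.31 and 1.95 in PIC_sG, and 3.04, 1.39 and 1.94 in PIC_G. The groups overlapped, and the array on slide 1 was the highest of its group in all 4 groups. The log2 difference of spi1b from Control was -0.41 (95% interval -1.53 to 0.70, adjusted p = 0.694 by limma) in PBS, 0.07 (-1.05 to 1.19, adjusted p = 0.967) in PIC_sG and 0.39 (-0.72 to 1.51, adjusted p = 0.787) in PIC_G. Its direction between PBS and Control was not the same within the slides, at -1.05, 0.12 and -0.32, and the intervals leave room for a doubling in either dsRNA group.

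The neutrophil gene mpx, which encodes myeloperoxidase, was read by 4 probes that were well above background on 10, 3, 1 and 0 arrays, and the first 2 were used. In Control the first was well above background on 2 arrays and the second on none, so that the Control level rests partly on signal near background. Its scaled log2 signal was -2.29, -2.01 and -1.10 in Control, -0.63, 1.26 and -0.98 in PBS, -0.75, -0.79 and -1.19 in PIC_sG, and -1.15, -1.0 and -0.28 in PIC_G. PBS replicate 2 stood highest of the 12 arrays, and it was also the highest on both of the probes that were well above background on 3 and on 1 arrays, at -0.13 and -0.03. The log2 difference of mpx between PBS and Control, joined over both probes, was 1.69 (SE 0.55, adjusted p = 0.105 by limma), and without PBS replicate 2 it was 1.00 (adjusted p = 0.317). The second probe was well above background in PBS on replicate 2 alone. The other PBS arrays read -2.32 and -2.61 on it, within the Control range of -3.07 to -2.25. Its bound of at least 1.43-fold between the means of PBS and Control thus rests on 1 array and does not describe the group. The difference from Control was 0.89 (SE 0.55, adjusted p = 0.460) in PIC_sG and 0.99 (SE 0.55, adjusted p = 0.427) in PIC_G. The second probe was well above background on no PIC_sG array. On PIC_sG replicate 3, the dimmest array, the first was not either, so that its value of -1.19 is signal near background.

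**Figure D2:**
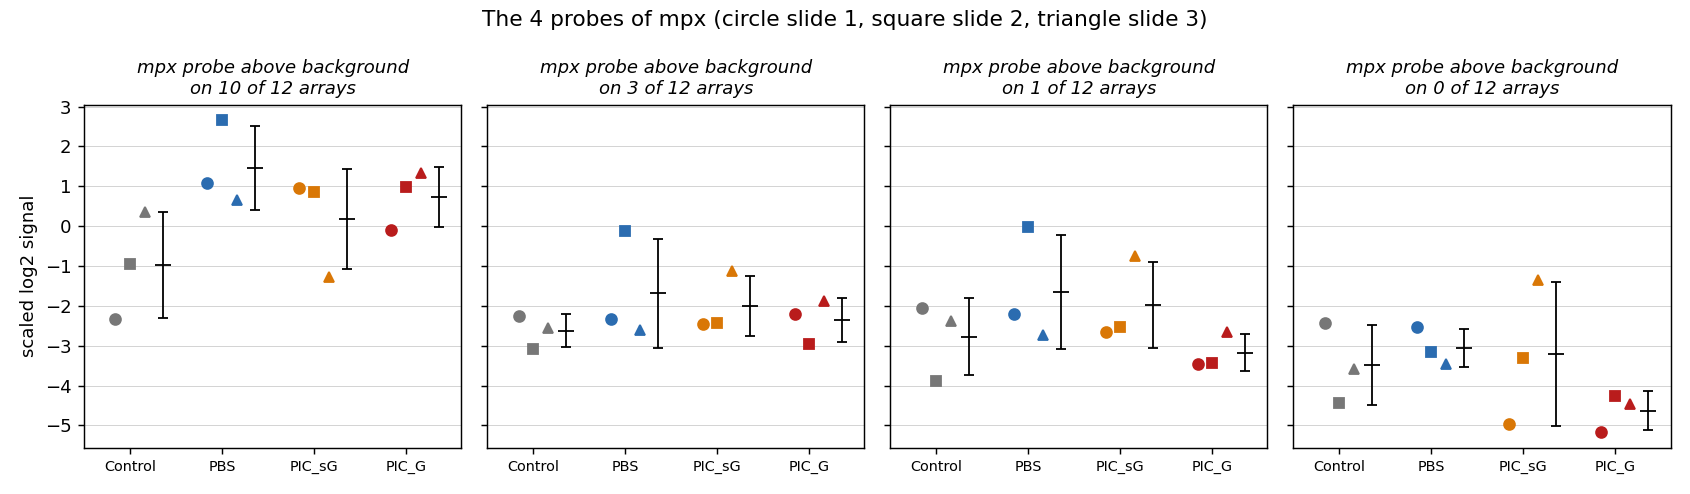
Scaled log2 signal (vertical axis, log2 units) of the 4 probes of mpx on the 12 arrays by group, with the mean and SD of 3 arrays. On the brightest probe the Control arrays lie at -2.32, -0.95 and 0.34, and PBS replicate 2 is the highest array at 2.66.

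The members' counts were set beside those of all transcripts, over the 5 members that were well above background on all 12 arrays. Between PBS and Control 3 of 5 rose, where 2.50% of all transcripts rose. Between PIC_sG and Control 1 of 5 rose, where 1.18% of all transcripts rose, and between PIC_G and Control, a comparison added after the values had been seen, 2 of 5 rose, where 1.22% did. The median log2 difference of the 5 was 1.26 in PBS, 1.09 in PIC_sG and 1.31 in PIC_G, and over the 3759 transcripts whose probes were well above background on all arrays it was 0.11, -0.02 and 0.12. The 3 arrays of PBS were all above the 3 of Control for 4 of 5 members and for 16.7% of all transcripts, those of PIC_sG for 3 of 5 and 11%, and those of PIC_G for 4 of 5 and 18.7%. Shares over all transcripts include dim ones, unlike the 5 members. Over the 3759 transcripts, 1.84%, 0.931% and 0.825% rose in PBS, PIC_sG and PIC_G, and 20.3%, 9.52% and 16.8% had all arrays above Control. These 3 comparisons share the Control arrays and are not independent of each other. The members were chosen with earlier results of these data known, so that an excess over these shares is no independent support.

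**Figure D3:**
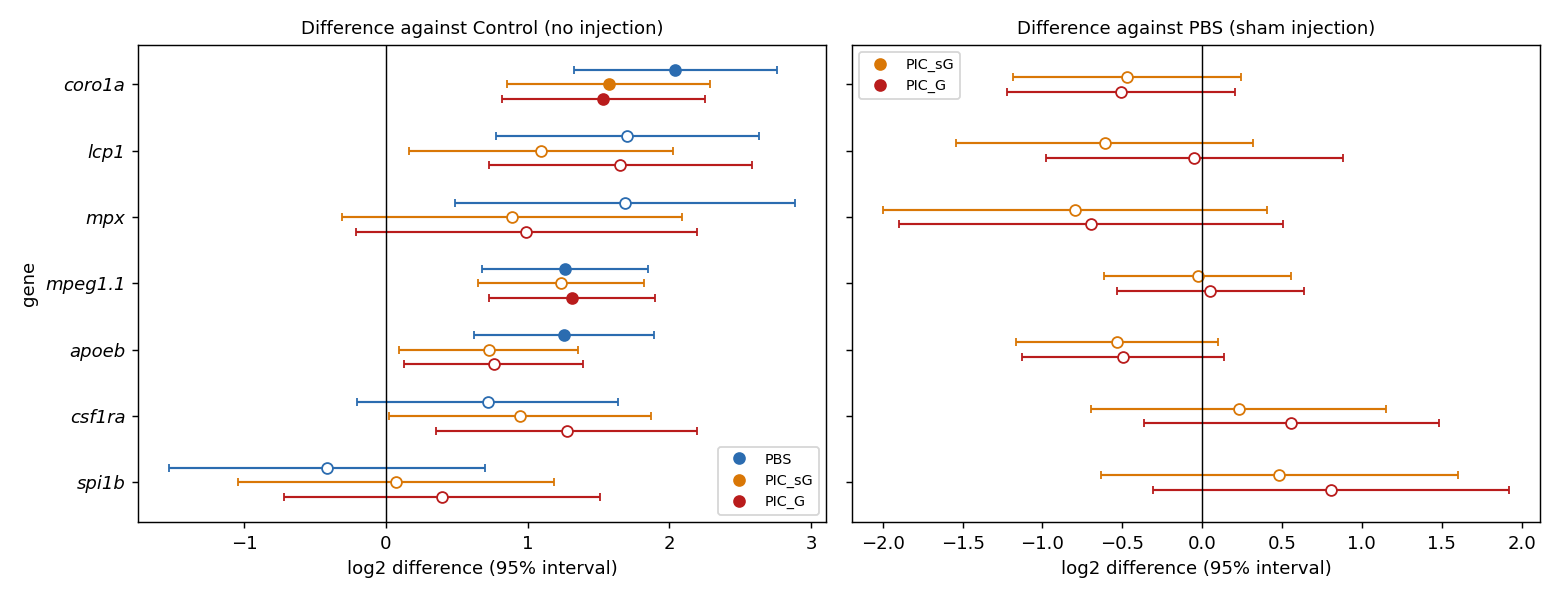
Log2 difference (horizontal axis) of each marker gene (vertical axis) from Control in the left panel and from PBS in the right panel, with the 95% interval from limma over 3 arrays per group and filled points for an adjusted p under 0.05. The differences from Control are above 0 except for spi1b in PBS, and all the intervals against PBS include 0.

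The calls were near the threshold. No member was called between PBS and Control without PBS replicate 2 or without Control replicate 3, or with the arrays scaled to the 50th percentile, with normexp background correction, or with no filter on dim probes, whereas the direction of coro1a, mpeg1.1, apoeb, lcp1 and mpx stayed the same under those settings. With the replicate number as a block, 4 of 7 members and 1182 transcripts were called in place of 3 and 600.

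The groups PIC_G and PBS were both injected and both had access to the gradient, and they differed by the dsRNA. The paper reports that fish given dsRNA in the gradient moved to warmer water. In this comparison dsRNA and the temperature that the fish chose therefore cannot be told apart. PIC_sG and PBS differed by both the dsRNA and access to the gradient. Of the 7 members, 0 were called between PIC_G and PBS by limma and 0 had an unadjusted p under 0.05. Of all 16136 transcripts, 0.260% were called and 2163 had an unadjusted p under 0.05. Likewise 0 members were called between PIC_sG and PBS, also at an unadjusted p under 0.05, in a comparison added after the values had been seen. There 1.01% of all transcripts were called and 2723 of 16136 had an unadjusted p under 0.05. For mpeg1.1 the log2 difference from PBS was 0.05 (95% interval -0.53 to 0.64) in PIC_G and -0.03 (-0.61 to 0.56) in PIC_sG. For coro1a it was -0.51 (-1.22 to 0.21) in PIC_G and -0.47 (-1.19 to 0.25) in PIC_sG, and for apoeb -0.50 (-1.13 to 0.14) and -0.53 (-1.16 to 0.10). For lcp1 it was -0.05 (-0.98 to 0.88) in PIC_G and -0.61 (-1.54 to 0.32) in PIC_sG. These intervals do not show that the groups were alike: the narrowest, that of mpeg1.1, ran from -0.53 to 0.64.

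The gradient comparison sets PIC_G against PIC_sG, both injected with dsRNA. None of the 7 members was called by limma and none had an unadjusted p under 0.05. Of all 16136 transcripts, 0.00620% were called and 910 had an unadjusted p under 0.05. The log2 differences ran from -0.04 for coro1a (95% interval -0.75 to 0.68) to 0.56 for lcp1 (-0.37 to 1.49), the latter with the dimmest array in PIC_sG. For mpeg1.1 the difference was 0.08 (-0.51 to 0.66) and for apoeb 0.04 (-0.60 to 0.67). The signs of these 4 turn under the other assignment of the dsRNA arrays. With both dsRNA groups pooled against Control and PBS, 0 of 7 members were called and 3 had an unadjusted p under 0.05 by limma. The 3 were mpeg1.1, coro1a and csf1ra. The probe of csf1ra entered the tests only through PIC_G, 1 of the pooled groups, so that csf1ra adds no support to this count. Of all 16136 transcripts, 1.46% were called and 2532 had an unadjusted p under 0.05. The reference of this pooled comparison includes the Control fish, which were not injected. A rise that the dsRNA groups share with the sham injection therefore also enters it. Among the 5 members above background on all arrays, the largest of these pooled differences was 0.64 for mpeg1.1 (SE 0.19, adjusted p = 0.129).

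Other genes of microglia and macrophages were followed beside the members. Of 37 named, 18 were tested, and 7 rose and 0 fell between PBS and Control, with a median log2 difference of 1.53. The corresponding counts were 6 in PIC_sG and 6 in PIC_G against Control, and 0 in either dsRNA group against PBS. Of all transcripts, 2.50% rose in PBS, 1.18% in PIC_sG and 1.22% in PIC_G against Control. The list was chosen with earlier results of these data known, so that an excess over these shares is no independent support. Against PBS 6 and 4 of the 18 had an unadjusted p under 0.05 by limma in PIC_sG and PIC_G. Of all 16136 transcripts 2723 and 2163 did. Among the genes of this list c1qa and c1qb, chains of the complement component C1q that microglia produce in the brain, were also called for pooled dsRNA. The scaled log2 signal of c1qa was -1.62, -1.73 and -1.68 in Control, 1.19, 0.49 and 0.12 in PBS, 1.81, 1.48 and 1.51 in PIC_sG, and 1.84, 1.62 and 1.70 in PIC_G. Its Control arrays were in the range where csf1ra was not well above background, so that the size of its rise from Control is uncertain. The groups of c1qa did not overlap in the order Control, PBS and the dsRNA groups, and the difference from PBS of 1.00 in PIC_sG (adjusted p = 0.144 by limma) and 1.12 in PIC_G (adjusted p = 0.142) was not called. Such a lack of overlap was common. All PBS arrays were above all Control arrays for 16.7% of transcripts. All PIC_sG arrays were above all PBS arrays for 9.7%, and all PIC_G arrays for 16.8%. For c1qb the difference from Control was 2.03 in PBS, 2.76 in PIC_sG and 3.09 in PIC_G (adjusted p = 0.0119, 0.00065 and 0.00183).

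Also called for pooled dsRNA were c1qc (log2 difference 1.64, SE 0.28, adjusted p = 0.0162 by limma), the macrophage gene mfap4.1 (1.68, SE 0.31, adjusted p = 0.0215) and havcr1, a receptor for phosphatidylserine (1.53, SE 0.28, adjusted p = 0.0232). None of these was called in a dsRNA group against PBS. The Control arrays of havcr1 read -2.11, -2.48 and -1.75, in the range where csf1ra was not well above background, so that the size of its rise is uncertain. Between PBS and Control mfap4.1 rose by 2.21 (adjusted p = 0.0259). The other genes of this list that rose there were chosen for mention after their values had been seen. They were the progranulin gene grna.2 (log2 difference 2.62), the lysosomal protease gene ctss2.2 (3.52), the macrophage transcription factor gene irf8 (2.23) and mpeg1.2 (2.47), a paralogue of mpeg1.1. Without PIC_sG replicate 3, 10 of the 18 were called between PBS and Control and 8 between PIC_sG and Control, and without PBS replicate 2 or Control replicate 3 none was called between PBS and Control. With scaling to the 50th percentile 0 in PBS, 0 in PIC_sG and 2 in PIC_G were called against Control, and with normexp 0, 1 and 0.

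Among genes shared by many leukocytes, 34 were named and 21 tested, of which 5 rose between PBS and Control, 3 between PIC_sG and Control and 5 between PIC_G and Control, with medians of 1.13, 0.70 and 1.07 on the log2 scale. In these comparisons 2.50%, 1.18% and 1.22% of all transcripts rose. This list too was chosen with earlier results of these data known. The chemokine receptor gene cxcr3.2 was called for pooled dsRNA (log2 difference 1.5, SE 0.20, adjusted p = 0.00305 by limma) and in all 3 comparisons with Control, at 1.25 in PBS, 1.84 in PIC_sG and 2.40 in PIC_G. Neither cxcr3.2 nor another gene of this list was called in a dsRNA group against PBS. The others that rose between PBS and Control, named after their values had been seen, were rac2, a GTPase of blood cells (1.70), lcp2a, an adaptor of leukocyte signalling (1.55), arpc1b of the Arp2/3 complex (1.52) and the NADPH oxidase subunit gene cyba (1.25). The Control arrays read -1.04, -1.62 and -1.51 for cxcr3.2 and -1.69, -1.15 and -1.37 for lcp2a. These are partly in the range where csf1ra was not well above background, so that the sizes of both rises are uncertain. Without PIC_sG replicate 3, 6 of the 21 were called between PBS and Control and 3 between PIC_sG and Control. No gene of this list was called between PBS and Control without PBS replicate 2, Control replicate 1, Control replicate 3 or PBS replicate 3, and 0 were called in any of the 3 comparisons with Control under the 50th percentile or normexp.

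**Figure D4:**
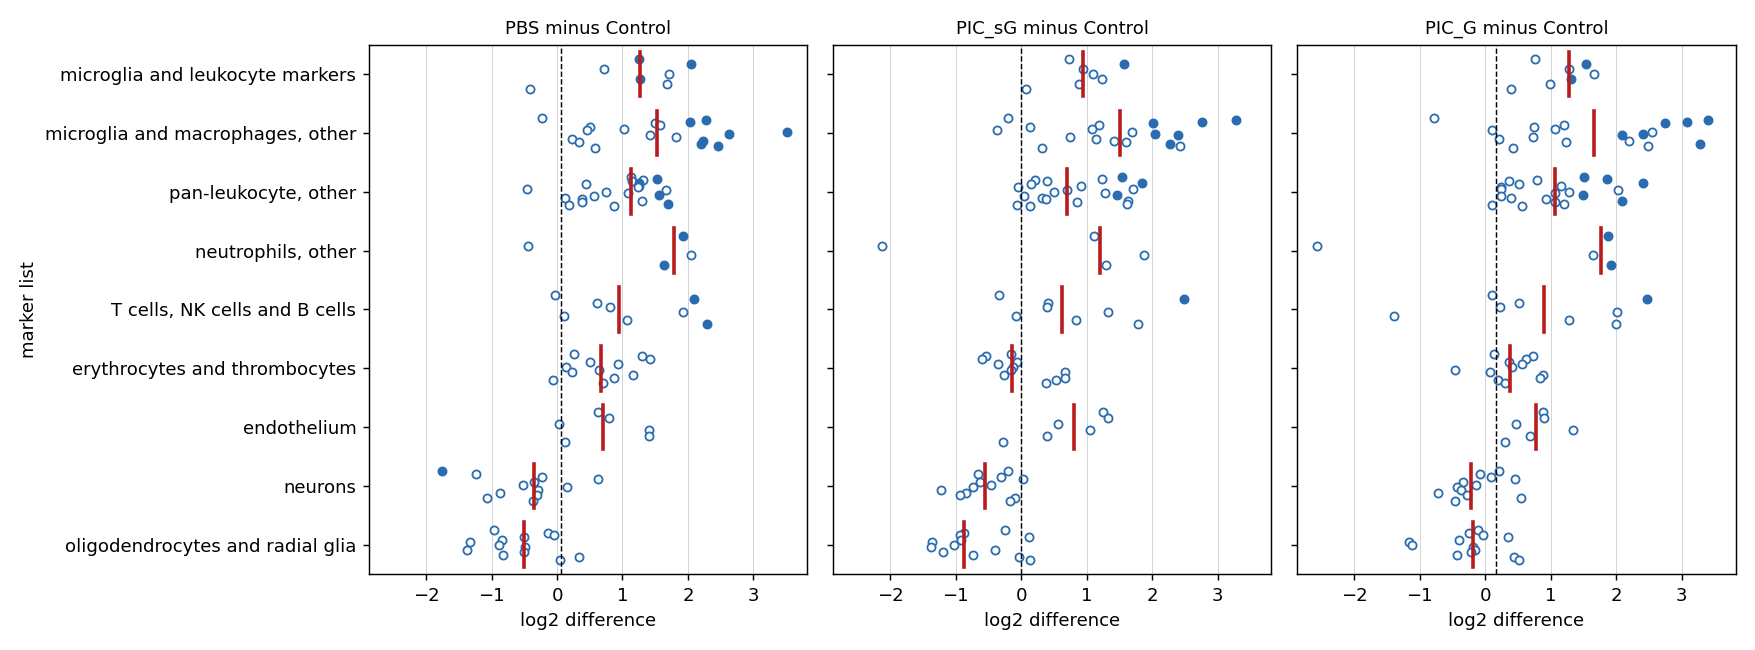
Log2 difference from Control (horizontal axis) in PBS, PIC_sG and PIC_G of the tested genes in each marker list (vertical axis), 1 point per gene, filled at an adjusted p under 0.05, with the list median as a red bar and the median of all transcripts as a dashed line. The medians of the leukocyte lists and of endothelium lie right of the dashed line in all 3 panels. That of erythrocytes and thrombocytes lies right of it in PBS and PIC_G and left of it in PIC_sG. The medians of neurons and other glia lie left of it in all 3 panels.

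Markers of other cells of the brain were set beside these lists. For erythrocytes and thrombocytes, 0 of 12 tested genes were called between PBS and Control, 5 had an unadjusted p under 0.05, and the median log2 difference was 0.67, whereas it was -0.14 between PIC_sG and Control and 0.38 between PIC_G and Control. Of all 16136 transcripts, 3520 had an unadjusted p under 0.05 by limma between PBS and Control. The summed signal of this list, in units of the 75th percentile of the array, ranged from 64.1 to 113 in Control, 90.6 to 174 in PBS, 75.3 to 140 in PIC_sG and 78.2 to 128 in PIC_G. The globin gene hbaa2 was present on every array, with a scaled log2 signal of 3.23 to 4.56 in Control and 3.73 to 5.21 in PBS. For pooled dsRNA the lowest unadjusted p-values of this list belonged to blvrb, cahz, nt5c2l1 and gata1a, with adjusted p-values from 0.330 to 0.556. Of these blvrb, which encodes a biliverdin reductase, fell by 1.84 on the log2 scale from PBS to PIC_sG (adjusted p = 0.0445 by limma).

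For endothelium, 0 of 6 tested genes were called in any of the 3 comparisons with Control, and the medians were 0.71 in PBS, 0.81 in PIC_sG and 0.78 in PIC_G. The endothelial genes with the lowest p for pooled dsRNA were cldn5a, cldn5b, fli1 and erg, with adjusted p-values from 0.210 to 0.448. The summed signal of this list was 10.74 to 17.5 in Control and 16.7 to 21.5 in PBS. For neurons, 1 of 12 tested genes was called between PBS and Control, the RNA-binding protein gene elavl3, which fell by 1.75 on the log2 scale (adjusted p = 0.0467 by limma), and the list median was -0.36 in PBS, -0.55 in PIC_sG and -0.21 in PIC_G. In PBS elavl3 read -2.25, -2.83 and -2.94, in the range where csf1ra was not well above background, so that the size of its fall is uncertain. For pooled dsRNA elavl3, snap25b, syn2a and sypa had the lowest p among the neuronal genes, with adjusted p-values from 0.190 to 0.340. For oligodendrocytes and radial glia 0 of 13 were called, with medians of -0.51, -0.88 and -0.19, and mag, fabp7a, gfap and olig2 had the lowest p for pooled dsRNA, with adjusted p-values from 0.420 to 0.506. The summed signal of the neuron list was 91.6 to 160 in Control and 82.4 to 103 in PBS, and that of the glia list 105 to 176 and 71.8 to 104. The part of these shifts in the leukocyte result was not tested.

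The transcripts whose profile over the 12 arrays was most like that of a member were sought among 2097 with a gene symbol and a signal well above background on all arrays, by the mean absolute difference of values centred on their own mean. For apoeb they were sarnp (0.15), lgmn (0.17), which encodes the lysosomal protease legumain, and mvb12a (0.19). For mpeg1.1 they were psme2 (0.14), a proteasome activator subunit, ptbp1a (0.16) and cnn2 (0.18). For lcp1 they were grna (0.16), which encodes a progranulin, lygl1 (0.20), a lysozyme, and mhc1zba (0.22), a class I major histocompatibility gene. For coro1a they were zgc:63569 (0.27), nasp (0.27) and calr3a (0.28), and for spi1b fzr1a (0.22), zgc:194398 (0.25) and mtx2 (0.26). The SD of the members' own profiles was 0.52 for apoeb, 0.60 for mpeg1.1, 0.84 for lcp1, 0.86 for coro1a and 0.64 for spi1b, and the 12 arrays share slides and group differences.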

How the data were processed

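The authors deposited Agilent Feature Extraction output (version 10.7.3.1 in its header) for each array, whose intensity values are linear and background-subtracted in the processed signal. Groups came from the sample titles. Spots with outlier flags were left out, log2 values of the same probe were averaged, and the 75th percentile of each array was subtracted, since the methods name a percentile shift without its percentile. Probes that were well above background on 3 or more arrays (19142) were kept and joined by the median per gene, named through RefSeq accessions. Transcripts needed 2 values in each group.

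Differences were tested with limma 3.58.1 in R 4.3.3, 2-sided, after a test of the procedure on simulated data. All members and all genes called for pooled dsRNA were named, or, in lists without a call, up to 4 with the lowest p. PIC_G against Control and PIC_sG against PBS were added after the values were seen. The members and lists were chosen with earlier results of these data known. Replicates were separate pools of fish. Arrays of Control and PBS with the same number, which is also the slide, correlated in their deviations (r of 0.56, 0.26 and 0.29 across transcripts), and no other pair of groups did so on all slides. Alternatives were the 50th percentile, quantile normalization, normexp (offset 50, on the median signal because the files used hold no mean signal), the filter on dim probes, the mean over probes, array weights, the replicate block, exchanged dsRNA arrays, the series table and leaving out each array. The deposited tables of processed values, headed log2, equalled natural logs of the scanner signal after background subtraction (within 0.001), with arrays not scaled to each other. The number of arrays limits the precision.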

Additional observations from a re-analysis of the deposited data

How the results depend on the processing

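Counts of called transcripts are given in the order pooled dsRNA, PIC_G minus PBS, PIC_sG minus Control, PBS minus Control, PIC_G minus PIC_sG, PIC_G minus Control and PIC_sG minus PBS, and were 236, 42, 203, 600, 1, 230 and 163 as reported. They were 83, 2, 40, 0, 0, 56 and 25 with the arrays scaled to the 50th percentile, 150, 12, 121, 108, 0, 80 and 99 with quantile normalization, 43, 2, 40, 0, 0, 0 and 5 with normexp, 59, 0, 45, 0, 0, 20 and 18 with no filter on dim probes and 37281 transcripts tested, and 88, 18, 89, 302, 0, 135 and 59 with only the 4819 transcripts well above background on all arrays. They were 238, 42, 203, 637, 1, 234 and 171 with the mean over probes, 1364, 2760, 463, 2767, 5, 2328 and 404 with array weights, 451, 75, 306, 1182, 0, 440 and 276 with the replicate block, 236, 163, 230, 600, 1, 203 and 42 with the dsRNA arrays exchanged and 134, 102, 120, 387, 0, 136 and 7 with the series table. Leaving out each array in turn gave, in the same order, 112 to 322, 1 to 113, 80 to 271, 0 to 1180, 0 to 10, 30 to 522, 44 to 150. The causes were not tested.

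The 6 called differences of members kept their sign in all 150 values under the alternatives, leaving out arrays and within slides included. Of 1061 such values for the 43 differences that were not called, 94 had the other sign, none of them called. Between PBS and Control, coro1a lost its call without PBS replicate 2 (adjusted p = 0.0718) and without Control replicate 3 (adjusted p = 0.0644), and under the 50th percentile, normexp and no filter (adjusted p = 0.36, 0.416 and 0.192). apoeb lost its call without 10 of 12 arrays and mpeg1.1 without 8 of 12. Against Control, coro1a lost its call in PIC_sG without any of the 12 arrays and in PIC_G without 11 of 12, and mpeg1.1 in PIC_G without 10 of 12. The replicate block, which pairs Control with PBS, added lcp1 in PBS, and it also added lcp1 in PIC_G (adjusted p = 0.0340) and mpeg1.1 in PIC_sG (adjusted p = 0.0461), where arrays shared a slide but the numbers did not pair the groups, and it changed no other call of a member. Scaling to the 50th percentile moved the median of all transcripts to -0.15, -0.62 and 0.32 in PBS, PIC_sG and PIC_G against Control. This scaling moves all transcripts of an array alike, so that differences relative to the median of all transcripts cannot change with it. The dim signals of csf1ra and mpx limit both genes.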

Other observations

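Of 8 tested genes of T cells, NK cells and B cells, 2 rose between PBS and Control by limma and 1 rose in each dsRNA group against Control. Against Control 2.50% of all transcripts rose in PBS, 1.18% in PIC_sG and 1.22% in PIC_G. The lists were chosen with earlier results of these data known. The coreceptor gene cd4-1 was called for pooled dsRNA (log2 difference 1.43, SE 0.29, adjusted p = 0.0353) and rose against Control by 2.09 in PBS, 2.48 in PIC_sG and 2.47 in PIC_G. Its Control arrays read -2.49, -4.10 and -3.54, in the range where csf1ra was not well above background, so that the size of these rises is uncertain. No gene of this list was called in a dsRNA group against PBS. The other gene called in PBS, zap70, which encodes a kinase of T cell receptor signalling and is named after its values had been seen, rose by 2.30 there (adjusted p = 0.0420). Of 4 other neutrophil genes tested, mmp9 and tnfb rose in PBS by 1.93 and 1.63. They encode a matrix protease and a cytokine and are not particular to neutrophils. The genes timp2b and scpp8 were not called there. For timp2b the scaled log2 signal was -0.49, -2.27 and -3.16 in Control and 1.88, -0.38 and -1.26 in PBS. For scpp8 it was 0.07, 0.75 and 2.27 in Control and -1.05, 1.70 and 1.13 in PBS. The Control arrays of tnfb and timp2b were partly in the range where csf1ra was not well above background. For pooled dsRNA, a different comparison, scpp8 had a log2 difference of -2.12 (adjusted p = 0.181 by limma) and timp2b one of 0.74 (adjusted p = 0.578).

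The interferon-induced genes served as a check that the dsRNA groups differed from the others, and not of which dsRNA group had the gradient. Of 9 tested, 6 rose between PIC_sG and Control and 4 between PIC_G and Control, and 1 rose between PBS and Control. With the assignment used here, all 9 were lower in PIC_G than in PIC_sG (median log2 difference -1.66). Of the 9, 0 were called by limma and 6 had an unadjusted p under 0.05, as had 910 of all 16136 transcripts. The paper reports that behavioural fever increased anti-viral transcripts, which is the order that the other assignment of the dsRNA arrays would give. Which assignment is right was not tested. The antiviral GTPase gene mxe had a scaled log2 signal of -2.45 ± 0.26 (SD, n = 3) in Control, -2.35 ± 0.46 in PBS, 3.17 ± 0.67 in PIC_sG and 1.39 ± 0.46 in PIC_G. Its Control and PBS levels were in the range where csf1ra was not well above background, so that the size of its rise is uncertain. The genes called for pooled dsRNA were mxe (log2 difference 4.68), mxb (4.86), irf7 (3.86), rsad2 (3.39), mxa (3.26) and stat1b (3.07), with adjusted p-values from 2.36e-05 to 0.00226 by limma. The Control levels of mxb, rsad2, mxa and stat1b were also in or below that range, so that the sizes of their rises are uncertain too. Those of irf7, at -0.43, -1.36 and -1.30, were partly in it, and the size of its rise is likewise uncertain. The gene that rose in PBS was mxa, by 2.19 (SE 0.45, adjusted p = 0.0303 by limma), a size that is uncertain for the same reason. It was higher again in PIC_sG than in PBS by 2.81 (adjusted p = 0.0197).

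A test added after the values had been seen set the difference of PIC_G from PBS against that of PIC_sG from Control. Of 16136 transcripts 0 were called by limma, with 2282 at an unadjusted p under 0.05. For coro1a the difference of differences was -2.08 (SE 0.46, adjusted p = 0.135), for mpeg1.1 -1.18 (SE 0.38, adjusted p = 0.204) and for apoeb -1.22 (SE 0.41, adjusted p = 0.217). It equals the difference of PIC_G from PIC_sG (-0.04, 0.08 and 0.04) less that of PBS from Control (2.04, 1.26 and 1.26). For these genes it therefore mostly restates the rise in PBS, which by the methods mixes injection and gradient, and is no separate result on the gradient.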
